A study of Mus musculus with 6 samples.

Results

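The 34 genes described here encode proteins of base excision repair (18 genes), nucleotide excision repair (11 genes) and mismatch repair (5 genes), the 3 pathways that cut damaged or mispaired bases out of one DNA strand and fill the gap. They were chosen by name for their role in repair, with earlier results of these data known. All 34 were found, on 1 row each, among the 23837 named genes of the array. Expression was measured in primordial germ cells (PGCs), from which sperm and eggs descend, of male mouse embryos at E13.5 (days after mating). The tested embryos carried the genotype og2.fvb.fancg -/- and their controls og2.fvb.fancg +/+ (called Fancg-/- and WT here), with 3 arrays in each group. All embryos came from heterozygous matings and carried the OG2 transgene, an EGFP reporter under the distal enhancer of Oct3/4, by which the PGCs were sorted. By genotype, the disrupted Fancg allele was carried by the whole embryo and not by the germ cells alone. Each array held RNA of 10000 sorted cells pooled from at least 5 embryos, amplified from 500 pg, so that no value belongs to a single embryo. Values are log2 signals of an Affymetrix Mouse Gene 2.0 ST array, and each difference is the mean of the samples labelled Fancg-/- minus the mean of the WT samples, so that a difference of 1 is a doubling.

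Base excision repair begins with a DNA glycosylase, which recognizes one kind of damaged base, such as uracil or oxidized guanine, and removes it. An AP endonuclease then cuts the bare site, a polymerase fills it and a ligase seals it on the scaffold Xrcc1. Nucleotide excision repair removes bulky, helix-distorting damage, found either across the genome or where RNA polymerase stalls, by opening the DNA with the helicases of TFIIH and excising a short stretch. Mismatch repair corrects errors of replication, which MutS proteins recognize and MutL proteins process. Fancg belongs to the Fanconi anemia core complex, which acts on interstrand crosslinks and is separate from these pathways. PGCs divide rapidly and erase most of their DNA methylation before this age, and base excision repair is among the pathways studied in that erasure.

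The 6 arrays were alike as a whole, with medians over the named genes between 4.73 and 4.79 and pairwise correlations across genes between 0.989 and 0.994. The targeted gene gave no check of the labels. Fancg measured 6.38, 6.65 and 6.87 in the samples labelled Fancg-/-, against 6.07, 5.95 and 6.37 in WT samples, a difference of 0.51 ± 0.16 (SE, limma adjusted p = 0.27). The sources used here do not give where its probes lie relative to the disrupted part, so each direction below rests on the labels. The 10 germ cell markers of the sorted cell type had mean levels of 9.69 to 9.71 in samples labelled Fancg-/- and 9.57 to 9.64 in WT samples. Their median difference was -0.014, with 4 markers above 0 and 6 below. The largest differences among them were those of Tfap2c (0.56) and Nanos3 (0.44). The 5 measured fetal Leydig cell markers, which mark steroid-producing cells of the testis, had a mean level of 4.0 to 4.72 in the samples labelled Fancg-/-, against 5.72 to 6.35 in WT samples.

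None of the 34 repair genes passed the limma test at an adjusted p under 0.05, nor did any of the 23837 named genes (0%). At an unadjusted p under 0.05, 4 members were higher in the samples labelled Fancg-/- and 0 were lower. These were the uracil glycosylase Ung, the strand break sensor Parp1, the TFIIH helicase Ercc2 and the MutL gene Mlh3. They make up 11.8% of the members, beside 12.4% of all named genes in either direction. Separately, 6.23% of all genes were higher and 6.17% were lower. The share of members at this threshold in either direction was near that of all genes. By the equal-variance test of the study's methods, 3 members were higher (Parp1, Ercc2 and Xrcc1, beside 5.33% of all genes) and 2 were lower (Ogg1 and Ercc6, beside 4.77% of all genes), and Ung and Mlh3 missed the threshold. The differences of the members ran between -0.24 and 0.46, with a median of 0.016 over the members and 0.011 over all genes, and 18 members lay above 0 and 16 below. The median size of a difference, whichever its sign, was 0.12 for the members and 0.11 for all genes.

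**Figure D1:**
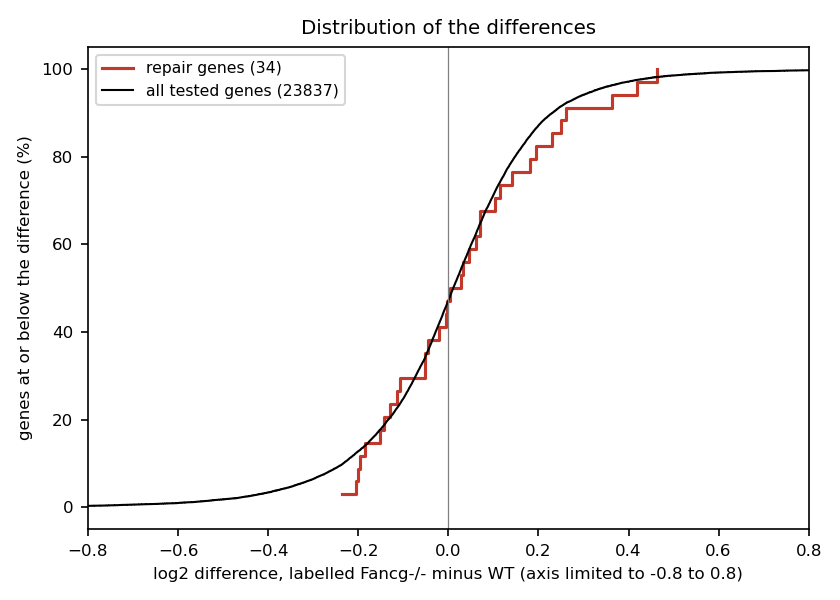
The cumulative share of genes (vertical axis) is plotted against the log2 difference, samples labelled Fancg-/- minus WT samples (horizontal axis), for the 34 members and for all 23837 named genes. The members stay between -0.24 and 0.46, and their median of 0.016 lies close to the 0.011 of all genes.

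The promoters of the 4 members past the unadjusted threshold are shown because they come from all 3 pathways, and that of Parp2 because its difference had the opposite sign to that of its paralog Parp1. Each is the RefSeq window (assembly GRCm38.p6) of 300 bases around a gene start, written along the gene's strand, with capitals on GC boxes (GGGCGG or its complement CCGCCC) and CCAAT boxes (CCAAT or its complement ATTGG). The windows are chr5:114130185-114130484 (plus strand) for Ung, chr1:180568641-180568940 (plus) for Parp1, chr14:50807666-50807965 (plus) for Parp2, chr7:19381767-19382066 (plus) for Ercc2 and chr12:85270550-85270849 (minus, the first of 2 listed windows) for Mlh3.
Ung promoter: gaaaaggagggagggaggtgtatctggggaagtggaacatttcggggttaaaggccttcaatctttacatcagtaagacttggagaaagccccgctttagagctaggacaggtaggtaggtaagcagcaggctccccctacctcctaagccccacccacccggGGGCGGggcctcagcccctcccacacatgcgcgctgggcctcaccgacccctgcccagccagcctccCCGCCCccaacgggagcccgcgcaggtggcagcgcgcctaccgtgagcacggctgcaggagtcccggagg
Parp1 promoter: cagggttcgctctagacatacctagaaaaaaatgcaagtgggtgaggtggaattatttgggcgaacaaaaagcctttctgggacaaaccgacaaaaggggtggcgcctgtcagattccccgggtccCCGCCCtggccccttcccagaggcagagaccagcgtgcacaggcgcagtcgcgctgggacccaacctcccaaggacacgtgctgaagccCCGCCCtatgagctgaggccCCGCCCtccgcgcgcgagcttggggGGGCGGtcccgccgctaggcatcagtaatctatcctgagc
Parp2 promoter: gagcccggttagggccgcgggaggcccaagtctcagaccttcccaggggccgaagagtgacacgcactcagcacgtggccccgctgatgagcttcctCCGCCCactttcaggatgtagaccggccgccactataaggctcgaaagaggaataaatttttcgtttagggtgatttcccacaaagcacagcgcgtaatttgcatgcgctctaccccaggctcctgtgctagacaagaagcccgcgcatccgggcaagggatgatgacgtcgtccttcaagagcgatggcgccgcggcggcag
Ercc2 promoter: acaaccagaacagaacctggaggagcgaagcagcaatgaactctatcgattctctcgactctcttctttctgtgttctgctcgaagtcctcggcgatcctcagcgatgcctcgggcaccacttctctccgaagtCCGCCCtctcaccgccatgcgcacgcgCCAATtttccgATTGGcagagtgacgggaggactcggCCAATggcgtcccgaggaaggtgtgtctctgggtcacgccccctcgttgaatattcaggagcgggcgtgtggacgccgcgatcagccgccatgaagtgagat
Mlh3 promoter: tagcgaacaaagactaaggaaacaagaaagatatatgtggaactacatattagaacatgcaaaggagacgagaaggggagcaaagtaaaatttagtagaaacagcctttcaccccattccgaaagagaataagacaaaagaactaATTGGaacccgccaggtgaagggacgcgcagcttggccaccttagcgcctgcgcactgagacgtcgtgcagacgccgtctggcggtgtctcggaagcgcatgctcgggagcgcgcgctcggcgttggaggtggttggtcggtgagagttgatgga
The Ung window held 2 GC boxes and no CCAAT box, the Parp1 window 4 GC boxes and the Parp2 window 1. The Ercc2 window had 1 GC box and 3 CCAAT boxes, and the Mlh3 window only 1 CCAAT box. Of the 34 members, 30 had a window, and Ercc3, Neil2, Apex2 and Polb had none. Some genes have several windows, and the 30 members had 35. Counted by gene, a GC box lay in at least 1 window of 25 of the 30 members (83.3%), against 38.2% of all 27025 genes in the table, and a CCAAT box in 17 of the 30 (56.7%), against 41.1%. Counted by window, a GC box lay in 26 of the 35 member windows (74.3%), against 35.7% of all 32851 windows, and a CCAAT box in 19 of the 35 (54.3%), against 37.4%. These matches describe the letters in the windows, and the arrays do not measure binding there. The genes of the table were neither restricted to those measured here nor matched to the members for signal or GC content.

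Among the 9 glycosylases, Ung had the highest difference. Ung removes uracil that arises by cytosine deamination or is built in during replication, and its nuclear and mitochondrial isoforms share 1 row of the array. It measured 8.77, 8.94 and 8.95 in the samples labelled Fancg-/-, against 8.61, 8.55 and 8.11 in WT samples. The groups did not overlap, and WT replicate 3 lay lowest. The means were 8.89 ± 0.10 in samples labelled Fancg-/- and 8.42 ± 0.27 in WT samples (SD, n = 3 each), a difference of 0.46 ± 0.14 (SE), or 1.38-fold, with a 95% interval of 0.13 to 0.79 and a limma adjusted p of 0.28. Smug1, a second uracil glycosylase, had means of 5.32 and 5.13 in samples labelled Fancg-/- and WT samples, with overlapping groups and a difference of 0.19 (adjusted p = 0.61). When the average over somatic markers (Leydig, Sertoli, stroma, endothelial, macrophage and erythroid) entered the fit as a covariate, the difference of Ung was -0.01. That average lay between -0.26 and -0.08 in samples labelled Fancg-/- and between 0.06 and 0.27 in WT samples. Genotype and this average therefore cannot be told apart by that fit. The means of its lists differed by -1.71 (Leydig), -0.39 (Sertoli), -0.26 (stroma), -0.075 (erythroid), 0.42 (endothelial) and 0.12 (macrophage). The average thus does not measure somatic content as a whole.

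The glycosylases of oxidized bases showed differences in both directions. Ogg1, which removes oxidized guanine, measured 5.90, 5.86 and 5.85 in the samples labelled Fancg-/-, against 6.17, 5.99 and 6.01 in WT samples. All 3 were below all WT samples. The means of 5.87 ± 0.02 and 6.05 ± 0.10 (SD, samples labelled Fancg-/- and then WT, n = 3 each) gave a difference of -0.19 ± 0.09 (SE, limma adjusted p = 0.46). Mutyh, which removes adenine paired with oxidized guanine, differed by 0.05 (adjusted p = 0.88). Neil3, which acts on oxidized bases in single-stranded DNA and at crosslinks, had the lowest difference of the 34 genes. It measured 5.35, 5.52 and 5.36 in the samples labelled Fancg-/-, against 5.64, 5.46 and 5.84 in WT samples, a difference of -0.24 ± 0.12 (SE, limma adjusted p = 0.47), and Fancg-/- replicate 2 lay above WT replicate 2.

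Nthl1, which removes oxidized pyrimidines, had the widest spread of the members. It measured 6.88, 7.44 and 7.31 in the samples labelled Fancg-/-, against 7.14, 6.73 and 7.06 in WT samples, a difference of 0.23 ± 0.17 (SE, limma adjusted p = 0.64). Neil1 and Neil2, further glycosylases of oxidized bases, differed by -0.11 and -0.04 (adjusted p = 0.75 and 0.89). Mpg, which removes alkylated purines, averaged 6.67 in samples labelled Fancg-/- and 6.68 in WT samples, and the 95% interval of its difference ran from -0.25 to 0.24.

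The AP endonuclease and polymerase genes had differences of up to 0.20 in size. Apex1, the main AP endonuclease, measured 9.92, 9.85 and 9.97 in the samples labelled Fancg-/-, against 9.86, 9.96 and 9.93 in WT samples, and the 95% interval of its difference ran from -0.20 to 0.19. Apex2, a second AP endonuclease, which processes blocked DNA ends, measured 6.83, 6.98 and 6.96 in the samples labelled Fancg-/-, against 7.05, 7.05 and 7.27 in WT samples. Its groups did not overlap, with a difference of -0.20 ± 0.10 (SE, limma adjusted p = 0.48). Polb, the gap-filling DNA polymerase beta, averaged 7.61 in samples labelled Fancg-/- and 7.66 in WT samples, with a difference of -0.05 (adjusted p = 0.85).

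The ligases and their scaffold had small differences of both signs. Lig1, which seals Okazaki fragments and long repair patches, measured 9.87, 9.95 and 10.03 in the samples labelled Fancg-/-, against 10.04, 10.06 and 10.07 in WT samples, with no overlap and a difference of -0.11 ± 0.08 (SE, limma adjusted p = 0.66). Lig3, the partner of Xrcc1, averaged 8.46 in samples labelled Fancg-/- and 8.39 in WT samples, a difference of 0.07 (adjusted p = 0.79). Xrcc1, the scaffold of single-strand break repair, measured 8.18, 8.13 and 8.12 in the samples labelled Fancg-/-, against 8.06, 8.03 and 8.03 in WT samples. Every sample labelled Fancg-/- was above every WT sample, and the difference of 0.10 ± 0.08 (SE, limma adjusted p = 0.65) had the tightest replicates of the 34 genes, with a pooled SD of 0.03. Aptx, which clears stalled ligation products from DNA ends, differed by -0.14 (adjusted p = 0.67), with overlapping groups.

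The PARP enzymes, which add ADP-ribose chains to proteins at DNA breaks, had differences of opposite sign. Parp1, the main break sensor, measured 10.67, 10.88 and 10.84 in the samples labelled Fancg-/-, against 10.62, 10.41 and 10.56 in WT samples. The groups did not overlap, and the means of 10.80 ± 0.11 and 10.53 ± 0.11 (SD, samples labelled Fancg-/- and then WT, n = 3 each) gave a difference of 0.26 ± 0.10 (SE), or 1.2-fold, with a 95% interval of 0.03 to 0.49 and a limma adjusted p of 0.35. Parp2, which shares part of this role, measured 8.6, 9.03 and 8.86 in the samples labelled Fancg-/-, against 9.0, 8.99 and 9.08 in WT samples. Its groups overlapped, and the difference was -0.20 ± 0.12 (SE, limma adjusted p = 0.56). Parp1 was no longer past the unadjusted threshold without Fancg-/- replicate 2 or 3 or without WT replicate 2 or 3, and its difference ran between 0.20 and 0.32 over the samples left out in turn. The Parp2 difference was -0.08 without Fancg-/- replicate 1.

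**Figure D2:**
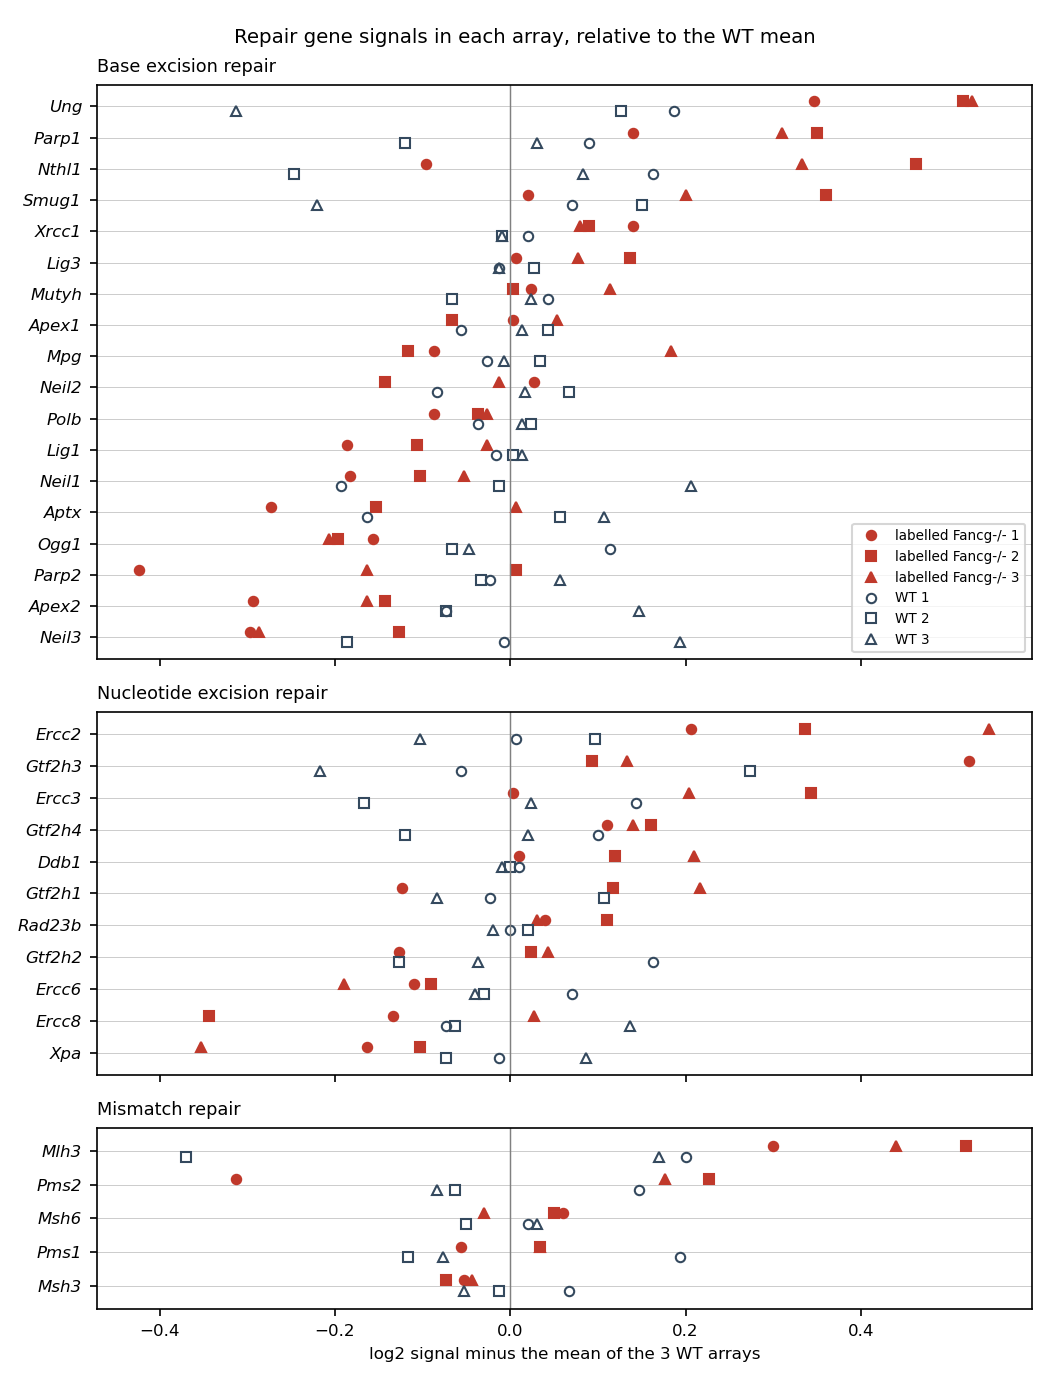
The log2 signal minus the mean of the 3 WT arrays (horizontal axis) is plotted for each array and each of the 34 members (vertical axes), by pathway. For each gene, filled symbols of samples labelled Fancg-/- lie just above open symbols of WT samples. Each symbol shape stands for 1 replicate number. Ung, Parp1, Ercc2 and Mlh3 have all 3 samples labelled Fancg-/- at higher signals than all 3 WT samples, while Parp2 overlaps.

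In nucleotide excision repair, the genes that find damage had differences of both signs. Ddb1, the adaptor of the ubiquitin ligase that marks ultraviolet lesions, measured 10.38, 10.49 and 10.58 in the samples labelled Fancg-/-, against 10.38, 10.37 and 10.36 in WT samples. These groups were called not overlapping by a gap of 0.005, and the difference was 0.11 ± 0.09 (SE, limma adjusted p = 0.65). Rad23b, which stabilizes the damage sensor Xpc, measured 10.12, 10.19 and 10.11 in the samples labelled Fancg-/-, against 10.08, 10.10 and 10.06 in WT samples, a difference of 0.06 ± 0.08 (SE, limma adjusted p = 0.81), also without overlap. Xpa, which verifies the damage inside the opened DNA, had the lowest difference of the pathway. It measured 6.0, 6.06 and 5.81 in the samples labelled Fancg-/-, against 6.15, 6.09 and 6.25 in WT samples, all 3 below every WT sample, with a difference of -0.20 ± 0.10 (SE, limma adjusted p = 0.47).

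The genes of transcription-coupled repair, Ercc6 and Ercc8, which respond to a stalled RNA polymerase, both had differences below 0. Ercc6 measured 7.32, 7.34 and 7.24 in the samples labelled Fancg-/-, against 7.5, 7.40 and 7.39 in WT samples. The groups did not overlap, with a difference of -0.13 ± 0.08 (SE, limma adjusted p = 0.59). Ercc8 averaged 6.09 in samples labelled Fancg-/- and 6.25 in WT samples, a difference of -0.15 (adjusted p = 0.66), with overlapping groups.

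TFIIH, which opens the DNA in repair and in transcription, had 6 genes among the members, and Ercc2 had the highest difference of the pathway. Ercc2 (also called Xpd), its repair helicase, measured 7.07, 7.20 and 7.41 in the samples labelled Fancg-/-, against 6.87, 6.96 and 6.76 in WT samples. Every sample labelled Fancg-/- was above every WT sample. The means were 7.23 ± 0.17 in samples labelled Fancg-/- and 6.86 ± 0.10 in WT samples (SD, n = 3 each), a difference of 0.36 ± 0.11 (SE), or 1.29-fold, with a 95% interval of 0.10 to 0.63 and a limma adjusted p of 0.28. It missed the unadjusted threshold without WT replicate 3, at a difference of 0.31.

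The other TFIIH genes did not pass that threshold. Gtf2h4, a core subunit that holds the helicase Ercc3, measured 7.58, 7.63 and 7.61 in the samples labelled Fancg-/-, against 7.57, 7.35 and 7.49 in WT samples, a difference of 0.14 ± 0.09 (SE, limma adjusted p = 0.59) with no overlap. Ercc3 (also called Xpb), the translocase of the complex, differed by 0.18 (adjusted p = 0.61). The further core subunits Gtf2h1, Gtf2h2 and Gtf2h3 differed by 0.07, -0.02 and 0.25 (adjusted p between 0.59 and 0.96), each with overlapping groups. Fancg-/- replicate 1 was the highest sample for Gtf2h3, at 8.25.

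In mismatch repair, 4 of the 5 members differed by less than 0.06 in size. Msh6, the MutS protein for single mispairs, measured 10.10, 10.09 and 10.01 in the samples labelled Fancg-/-, against 10.06, 9.99 and 10.07 in WT samples, and the 95% interval of its difference ran from -0.16 to 0.22. Msh3, the MutS protein for larger loops, measured 7.61, 7.59 and 7.62 in the samples labelled Fancg-/-, against 7.73, 7.65 and 7.61 in WT samples, a difference of -0.05 ± 0.08 (SE, limma adjusted p = 0.85), the lowest of the pathway. The groups overlapped at WT replicate 3.

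Mlh3, a MutL protein that acts in meiotic crossing over as well as in mismatch repair, was the exception. It measured 6.22, 6.44 and 6.36 in the samples labelled Fancg-/-, against 6.12, 5.55 and 6.09 in WT samples. The groups did not overlap, and WT replicate 2 stood below the other 5 samples. The means were 6.34 ± 0.11 in samples labelled Fancg-/- and 5.92 ± 0.32 in WT samples (SD, n = 3 each), a difference of 0.42 ± 0.16 (SE), or 1.34-fold, with a 95% interval of 0.05 to 0.79 and a limma adjusted p of 0.35. The difference was 0.24 without WT replicate 2, and Mlh3 then missed the unadjusted threshold, as it did without Fancg-/- replicate 2 or 3.

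Of the other MutL genes, Pms2, the endonuclease of the main MutL complex, measured 7.20, 7.74 and 7.69 in the samples labelled Fancg-/-, against 7.66, 7.45 and 7.43 in WT samples. Fancg-/- replicate 1 lay below all WT samples and the other 2 lay above them, and the 95% interval of the difference ran from -0.33 to 0.39. Pms1, whose part in repair is less clear, averaged 7.37 in each group, with an interval of -0.25 to 0.25.

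**Figure D3:**
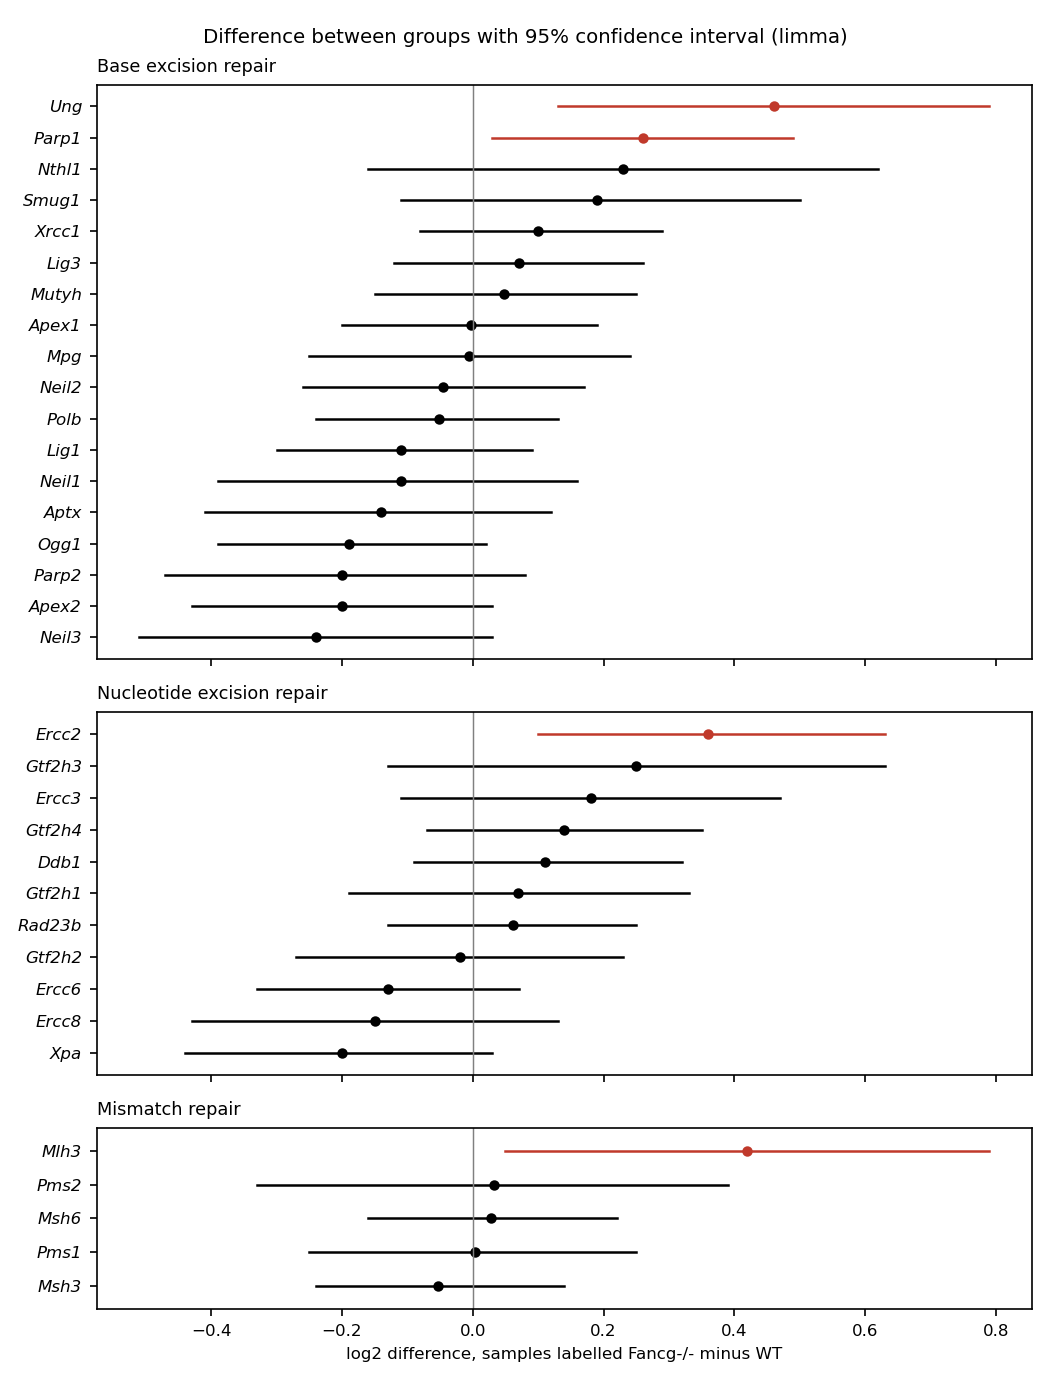
The log2 difference of each of the 34 members, samples labelled Fancg-/- minus WT samples, is plotted on the horizontal axis with its 95% interval, by pathway. Red marks the 4 members whose interval lies off 0, which are Ung, Parp1, Ercc2 and Mlh3.

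By pathway, the medians lay near 0. The 18 base excision repair genes had a median difference of -0.026, with 7 above 0 and 11 below, and 2 of them passed the unadjusted threshold. The median was 0.069 for the 11 nucleotide excision repair genes, with 7 above 0, and 0.028 for the 5 mismatch repair genes, with 4 above 0, and 1 gene passed in each. The genes that passed were 11.1%, 9.09% and 20% of the 3 pathways in that order, beside 12.4% of all genes in either direction. Over the arrays, the mean of the 34 genes, each centred on its own mean, was -0.053, 0.049 and 0.056 in the samples labelled Fancg-/-, against 0.011, -0.047 and -0.016 in WT samples. The groups overlapped, since Fancg-/- replicate 1 was the lowest array of the 6. In base excision repair, where Ung and Parp1 were the highest, the mean of that array was -0.079.

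The groups did not overlap for 13 of the 34 members (38.2%), against 17.9% of all named genes. In 8 members every sample labelled Fancg-/- was above every WT sample (9.45% of all genes), and in 5 every one was below (8.45% of all genes). The 8 were Ung, Xrcc1, Parp1, Ercc2, Rad23b, Ddb1, Gtf2h4 and Mlh3, and the 5 were Ogg1, Apex2, Lig1, Xpa and Ercc6. Some of these separations were small and went with tight replicates, as in Ddb1 and Rad23b. The median pooled SD was 0.11 for the members and 0.14 for all genes. With the array medians set equal, the count was 8 of 34 (23.5%), against 18% of all genes, since Ddb1, Gtf2h4, Lig1, Xpa and Ercc6 then overlapped. After further quantile normalization it was 11 of 34 (32.4%), against 18.2% of all genes. The size of the gap between members and all genes thus depended on the scaling.

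Related members were also compared with each other within each sample, as the log2 ratio of one gene to the other, set to a mean of 0 in WT samples. The 8 pairs were chosen after the values had been seen, so their p-values cannot test whether the ratios differ between genotypes. How often ratios of other gene pairs separate the groups was not computed. The Parp1 to Parp2 ratio was 0.56, 0.34 and 0.47 in the samples labelled Fancg-/-, against 0.11, -0.09 and -0.02 in WT samples, a difference of 0.46 between the group means. That of Ung to Smug1 was 0.32, 0.16 and 0.32 in the samples labelled Fancg-/-, against 0.11, -0.03 and -0.09 in WT samples, a difference of 0.27. The ratio of Lig3 to Lig1 differed by 0.18, also without overlap. For each of these 3 pairs the two-sided exact permutation test gave p = 0.1, the smallest that 3 samples against 3 allow, or 0.27 after Benjamini-Hochberg adjustment over the 8 pairs. The groups overlapped in the other 5 pairs, Apex1 to Apex2 (0.20), Neil3 to Neil1 (-0.12), Ercc2 to Ercc3 (0.18), Msh6 to Msh3 (0.08) and Pms2 to Pms1 (0.03).

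**Figure D4:**
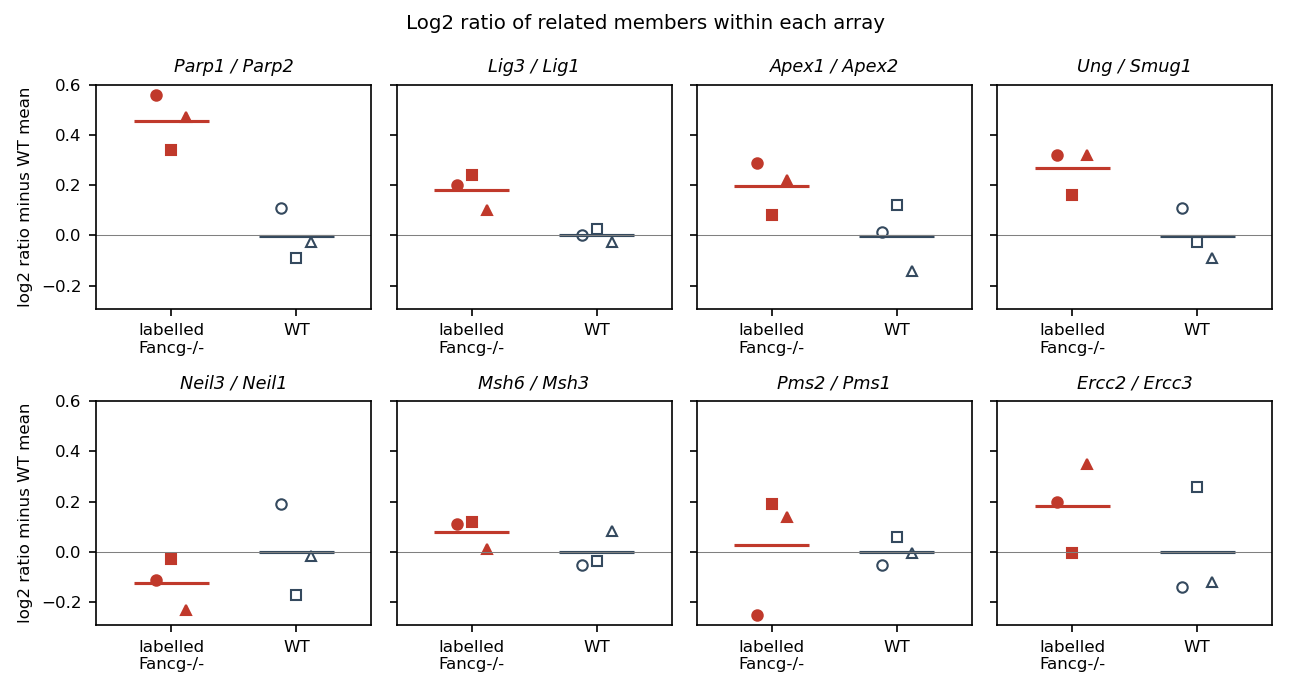
The within-sample log2 ratio of 8 pairs of related members, relative to the WT mean, is plotted for each array, with samples labelled Fancg-/- left of WT samples. The groups are apart for Parp1 to Parp2, Lig3 to Lig1 and Ung to Smug1.

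Further genes of the 3 pathways, listed by their role, gave 36 measured genes of 37 and a median difference of 0.052. At an unadjusted p under 0.05, 1 was higher and 0 were lower (2.78%, beside 12.4% of all genes in either direction). That gene was Rpa3, the small subunit of the single-strand binding protein RPA. Rpa3 measured 9.66, 9.56 and 9.64 in the samples labelled Fancg-/-, against 9.40, 9.47 and 9.18 in WT samples. The groups did not overlap, with a difference of 0.27 ± 0.10 (SE, limma adjusted p = 0.35). The larger RPA subunits Rpa1 and Rpa2 differed by 0.05 and 0.00. The damage sensor Xpc and the nuclease Ercc5, which cuts on one side of the lesion, differed by 0.24 and 0.30 (adjusted p = 0.42 and 0.53), and Rbx1, a subunit of the ligase that holds Ddb1, by -0.22 (adjusted p = 0.45). Pcna, the sliding clamp, differed by 0.07, and its nuclease partner Fen1 by 0.12.

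Several repair genes are transcribed with the genes of DNA replication, so an S phase list was read beside them. Of its 20 genes, 4 were higher in the samples labelled Fancg-/- at an unadjusted p under 0.05 and 0 were lower (20% of the list, beside 6.23% of all genes higher and 6.17% lower), with a median of 0.089. The 4 were the cyclin Ccne1 (0.50), the ribonucleotide reductase subunit Rrm2 (0.43) and the origin licensing factors Cdt1 (0.41) and Cdc6 (0.37), with limma adjusted p between 0.15 and 0.33. The mean of the list, centred by gene, was 0.00, 0.10 and 0.09 in the samples labelled Fancg-/-, against 0.01, -0.13 and -0.07 in WT samples. Fancg-/- replicate 1 was the lowest of its group in this list as in the members, and the groups overlapped. The part of S phase genes in the members' values was not tested.

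Octamers of the E2F type, which replication genes often carry, are shown because they mark which repair genes hold one. The letters searched were TTTCCCGC, TTTGGCGC, TTTCGCGC and TTTGCCGC on both strands. Such an octamer lay in a window of 4 of the 30 members (13.3%), against 2.6% of all genes in the table, or in 4 of the 35 member windows (11.4%), against 2.26% of all windows. Again the table was not matched to the members for signal or GC content. None lay in the windows of Ung, Parp1, Ercc2 or Mlh3. The stretches of 30 bases are from RefSeq (GRCm38.p6), along the gene's strand, at chr7:13278841-13278870 (plus) for Lig1, chr13:92355187-92355216 (minus) for Msh3, chr17:24632539-24632568 (plus) for Nthl1 and chr17:87975054-87975083 (plus) for Msh6, with the octamer in capitals.
Lig1 octamer: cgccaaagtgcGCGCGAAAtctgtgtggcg
Msh3 octamer: ttgccgtcaagTTTGGCGCgaaatcgcagc
Nthl1 octamer: ccgcgcgcgccTTTCGCGCgcaggtcctcc
Msh6 octamer: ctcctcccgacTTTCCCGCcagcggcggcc
The differences of these 4 genes were -0.11, -0.05, 0.23 and 0.03 in the same order, and none passed the unadjusted threshold. In the Msh3 stretch a second match overlapped the capitals.

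Markers of other cells had larger differences than most repair genes. All 5 measured fetal Leydig cell markers were lower in the samples labelled Fancg-/- at an unadjusted p under 0.05, with a median difference of -1.55 and no overlap. At that threshold 6.23% of all genes were higher and 6.17% were lower, and the groups did not overlap for 17.9% in either direction. The 6 stroma markers had a median of -0.26, with 3 lower, and the 6 endothelial markers a median of 0.37, with 4 higher. Of these 4, Pecam1 averaged 9.92 in samples labelled Fancg-/- and 9.54 in WT samples, near the mean level of the germ cell markers. The other endothelial markers averaged at most 6.27 in either group. Whether Pecam1 marks other cells in these pools was not tested. For the 6 markers of Sertoli cells the median was -0.47, with none past the threshold, and a mean level of 6.20 to 6.87 in samples labelled Fancg-/- and 6.63 to 7.53 in WT samples. In sorted pools, fewer cells of a type and less RNA per cell cannot be told apart. Of the 6 macrophage markers 2 were higher (Tyrobp by 0.59 and Adgre1 by 0.24), and the list had a median of 0.058. Csf1r, Ptprc and Mrc1 differed by 0.09, 0.026 and 0.0027, and Cx3cr1 by -0.22. Of the list, 3 markers lay in the lowest 25% of genes by mean signal. The mean level of the list did not overlap, at 4.05 to 4.16 in samples labelled Fancg-/- and 3.93 to 4.02 in WT samples. Of the 4 measured erythroid markers 1 was lower (Alas2, -0.47) and 3 had differences above 0, with a median of 0.017. Their mean levels of 3.94 to 4.15 in samples labelled Fancg-/- and 4.05 to 4.22 in WT samples overlapped. With the somatic average as a covariate, the differences of Parp1, Ercc2 and Mlh3 were 0.15, 0.35 and 0.34, and none of the 34 genes was higher at an unadjusted p under 0.05.

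**Figure D5:**
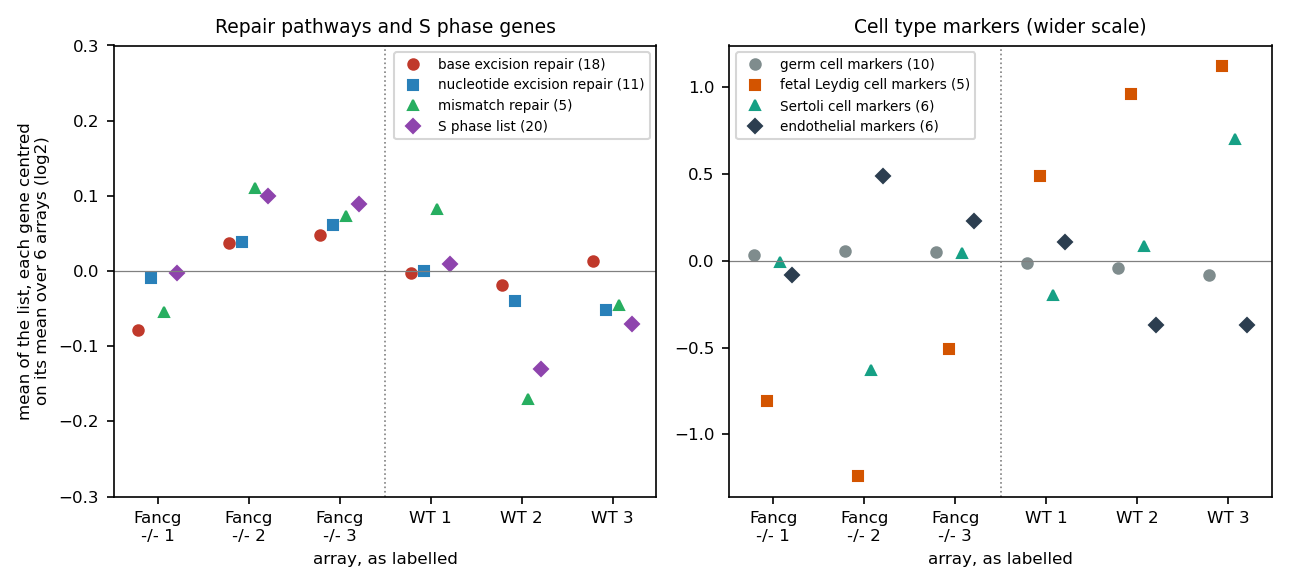
The mean of each gene list, with every gene centred on its mean over the 6 arrays (vertical axes, log2), is plotted for each array, with samples labelled Fancg-/- left of WT samples, repair pathways and S phase genes on the left and cell type markers on a wider scale on the right. The repair pathways overlap between the groups, and the fetal Leydig cell markers do not.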

How the data were processed

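PGCs from 3 pools labelled Fancg-/- and 3 WT pools were measured, 1 array each, and by the study's methods the pools were separate samples. The authors made the deposited values, log2 signals with 1 row per gene, by RMA (the submitters' processing notes also name Partek), so isoforms are not separated. The sources used here give neither versions nor the probe annotation. RMA corrects background and sets the arrays to one distribution, so differences are relative to the whole array. Of 24479 rows, 23712 were named through RefSeq (GRCm38.p6) and 23281 through the platform's own annotation, which gave 23837 named genes in all, and 642 unnamed rows were left out. Hmgb1, Insl3, Hba-a1 and Hbb-bt were not found among the named rows.

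Group differences were fitted by lmFit and eBayes of limma 3.58.1 in R 4.3.3, p-values were adjusted by Benjamini-Hochberg over the 23837 genes, and 3 arrays in each group limit the precision. The procedure was tested on simulated data in which 200 genes were changed. Each change set there was larger than any difference of a member, so detection of smaller changes was not tested. Named in full were members with an unadjusted p under 0.05, members whose groups did not overlap, and the highest and lowest of each pathway. Nthl1, Apex1, Parp2, Msh6 and Pms2 are outside this rule, and their values in every sample were added after they had been seen. Further pathway genes were named at an unadjusted p under 0.05, and Xpc, Ercc5, Rbx1, Rpa1, Rpa2, Pcna, Fen1 and the S phase and marker genes after their values were seen. The somatic average is the mean, in each sample, of the 6 somatic list means, centred over the 6 samples. Pecam1 is part of its endothelial list. Members and lists were chosen with earlier results of these data known. Alternatives were the methods' equal-variance test, a trend with a robust prior, array weights, further quantile normalization, equal array medians, a filter on dim genes, all rows, the replicate block, the somatic covariate and leaving out each sample.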

Additional observations from a re-analysis of the deposited data

How the results depend on the processing

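No setting made a member pass the adjusted threshold. Over the samples left out in turn, the number of genes called ran between 0 and 3, with the 3 (Cntfr, Hsd3b1 and DQ267100, none a member) called without WT replicate 1. The median of all members then ran between -0.023 and 0.06, of base excision repair between -0.062 and 0.017 and of mismatch repair between -0.013 and 0.1. Members higher at an unadjusted p under 0.05 numbered between 2 and 5, and members lower between 0 and 1, and only Ung stayed past that threshold whichever sample was left out. There were 2 higher without Fancg-/- replicate 2 or 3 (Parp1 and Mlh3 lost) and without WT replicate 3 (Ercc2 and Parp1 lost), and 3 without WT replicate 2 (Parp1 and Mlh3 lost, Gtf2h3 gained). The 1 lower was Parp2 without Fancg-/- replicate 2 and Neil3 without WT replicate 2. Leaving out a sample turned the sign of members near 0, whose differences then ran from -0.033 to 0.029 (Apex1), -0.0061 to 0.17 (Gtf2h1), -0.082 to 0.06 (Gtf2h2), -0.1 to 0.049 (Mpg), -0.087 to 0.0056 (Neil2), -0.057 to 0.1 (Pms1) and -0.067 to 0.2 (Pms2).

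With the equal-variance test, 3 members were higher (Parp1, Ercc2 and Xrcc1) and 2 lower (Ogg1 and Ercc6), beside 5.33% and 4.77% of all genes. With equal array medians, 8 members did not overlap (23.5%, against 18% of all genes), and Apex1 was 0.021, Gtf2h2 0.0044 and Mpg 0.018. Gtf2h2 was 0.013 with array weights and Pms1 -0.0085 after further quantile normalization. In that last setting, 11 members did not overlap (32.4%, against 18.2% of all genes). With the somatic covariate, 0 members were higher, the medians were -0.12 (mismatch repair) and 0.0028 (nucleotide excision repair), and the sign turned for Apex1 (0.14), Aptx (0.14), Ercc3 (-0.07), Ercc8 (0.32), Lig3 (-0.0055), Mpg (0.19), Neil1 (0.22), Neil2 (0.15), Nthl1 (-0.022), Pms1 (-0.23), Pms2 (-0.32), Rad23b (-0.027), Smug1 (-0.26) and Ung (-0.01). The cause of these changes was not tested. The correlations of the deviations of same-numbered samples were -0.143, -0.11 and 0.03. With 3 arrays in each group these values cannot show whether same-numbered samples shared more than a number. With the replicate block, 3 members were higher (Parp1 lost), 0 were lower and 0 genes were called. In all, 18 members kept their sign under every alternative. With 3 arrays in each group the standard errors of the members lay between 0.08 and 0.17, and the median size of a difference was 0.12.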

Other observations

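Within the samples labelled Fancg-/-, replicate 1 was the lowest of its group for 21 of the 34 members, replicate 2 was the highest for 15 and replicate 3 for 14. Within the WT samples, replicate 2 was the lowest for 14 members, replicate 3 for 12 and replicate 1 for 8. The SD was larger in WT samples than in samples labelled Fancg-/- for 15 of the 34 members, and for 46.3% of all genes. The replicates were widest for Nthl1, with a pooled SD of 0.26, followed by Gtf2h3 and Mlh3 (0.24 each) and Pms2 (0.23). They were closest for Xrcc1, Polb and Rad23b, at 0.03 to 0.04.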
